A study of Xenopus laevis with 6 samples.

Results

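The metabotropic glutamate receptors and the GABA-B receptors are the G protein-coupled receptors through which glutamate and GABA, the main fast excitatory and inhibitory transmitters of the brain, also act slowly. They were chosen by symbol, as every annotated copy of grm2, grm3, grm4, grm5, grm7, grm8, gabbr1 and gabbr2. Of these 8 symbols, 7 had a gene, and together they gave 12 copies among the 45099 genes counted. Because the frog Xenopus laevis is allotetraploid, many genes have a copy named .L, on the long subgenome, and one named .S, on the short one. Both copies were annotated for grm2, grm3, grm5, grm7 and gabbr1, and 1 copy for grm4 (.S) and gabbr2 (.S). No gene carried the symbol grm8, and it was not analysed here. The filter on low counts, which kept 19158 genes, passed 11 copies and left out grm2.S.

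RNA came from the optic tectum, the visual centre of the midbrain, of Xenopus laevis tadpoles at stage 46. The IN group was 3 libraries of immature neuron-enriched material from animals given visual stimulation. The NPC group was 3 libraries of neural progenitor-enriched material from animals kept in the dark. Since each population was taken under 1 visual condition, the effects of population and light cannot be told apart. No genotype, transgene or strain is given in the labels, and the sources used here do not say how the populations were enriched. The labels do not say that libraries of a group came from separate animals. The p-values thus set a difference only against the spread among these 3 libraries of a group, which the fits estimate partly from other genes. That spread may be technical.

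Each metabotropic glutamate receptor is a dimer that binds glutamate in a large outer domain. Group I receptors such as mGlu5 (grm5) couple to Gq and phospholipase C, whereas group II (grm2, grm3) and group III (grm4, grm7, grm8) receptors couple to Gi/o and lower cyclic AMP and transmitter release. The GABA-B receptor works as a pair of unlike subunits: gabbr1 encodes the one that binds GABA, and gabbr2 the one that engages the Gi/o protein and brings the pair to the cell surface.

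What the counts contain bears on all values for these genes, most of which are long. Among genes with 1 transcript, no untranslated region, no overlapping gene and no intron, 644 of 655 had the same count in the mRNA table and in the coding-sequence table in every library. Where introns added up to over 100 kb, 0 of 152 did, and the median coding share was 40.3%. The mRNA table therefore counted reads over the whole gene span, introns included, and its values are called span reads here. Genes that overlap another gene were not part of this check. The span reads per library totalled 9388103, 9747548 and 9914191 in IN libraries 1, 2 and 3, against 8422751, 9655246 and 8480161 in NPC libraries 1, 2 and 3. Coding reads made up 45.9%, 54.0% and 60.9% of all span reads in IN libraries 1, 2 and 3, against 45.1%, 55.1% and 61.0% in NPC libraries 1, 2 and 3. The share was thus lowest in library 1 of both groups and highest in library 3 of both. Progenitor markers summed to 1778 to 3470 CPM (reads scaled for library size by TMM) in IN and 1154 to 3105 CPM in NPC, and neuron markers to 4943 to 7745 CPM in IN and 5510 to 11468 CPM in NPC. Neither list separated the groups. The signs of the fold changes (IN minus NPC) were mostly opposite to the labels, with 12 of 14 progenitor copies above 0 and 12 of 16 neuron copies below 0, of which edgeR and DESeq2 called 0, and 1 neuron copy had an unadjusted p under 0.05. Of the 12 copies of tectum markers, en1.L and en1.S had 0 reads in all 3 NPC libraries and the other 10 were tested, of which 2 were above 0 and 8 below with a median of -0.55, 1 of them with an unadjusted p under 0.05 and none called. Markers of microglia and leukocytes summed to 20.7 to 98.2 CPM in IN and 8.75 to 23.8 CPM in NPC, and those of endothelium to 21.7 to 59.7 CPM in IN and 49.4 to 128 CPM in NPC. Their part in the receptor values was not tested. In bulk RNA, fewer cells of a type and less RNA per cell cannot be told apart.

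No receptor copy passed the test between IN and NPC. Of 19158 genes, edgeR's quasi-likelihood test called 0 at an adjusted p of 0.05, which is a background of 0%, and 658 genes (3.43%) had an unadjusted p under 0.05. Among the 11 tested copies, 0 had an unadjusted p under 0.05. DESeq2 called 88 genes (0.459%) and none of the copies, and limma-voom called 0 genes. Fold changes (log2, IN minus NPC) were above 0 for 6 copies and below 0 for 5, against 49% above 0 over all genes. Their median was 0.04, and that of all genes was -0.03. All adjusted p below come from edgeR over all 19158 genes and were 1.00 for each copy. Standard errors were 0.54 to 1.41 on the log2 scale, and the median gene had one of 1.41. The narrowest 95% interval of a copy, that of gabbr1.L, ran from -0.58 to 1.69.

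**Figure D1:**
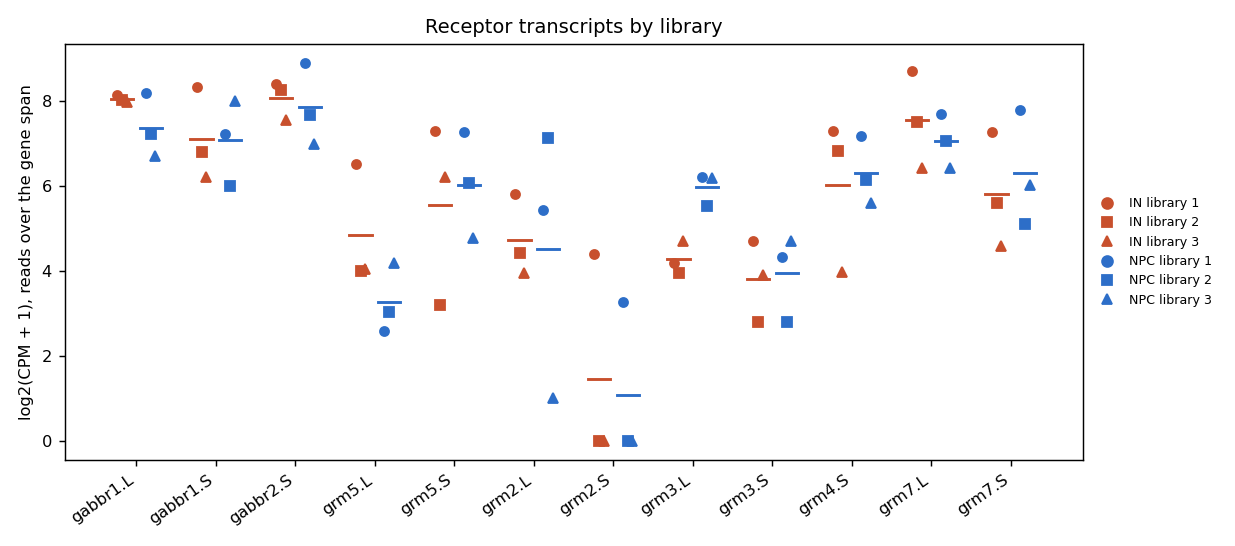
Span CPM (log2 axis, 1 CPM added) of each receptor copy in IN (orange, left of each pair) and NPC (blue, right) libraries. Symbols mark the library number, and bars the group mean of the log2 values. The IN and NPC points overlap for every copy except grm3.L, where the 3 IN libraries sit at 14.5 to 25.1 CPM and the 3 NPC libraries at 45.0 to 73.3 CPM.

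Group I was represented by grm5, the postsynaptic receptor that is tied through Homer proteins to calcium stores. The copy grm5.L (build 9.1, chromosome 2L, 171477477 to 171492745, minus strand) had 916, 148 and 150 span reads in IN libraries 1, 2 and 3, against 47, 58 and 137 in NPC libraries 1, 2 and 3. All IN counts were above all NPC counts, but after scaling NPC library 3 (17.3 CPM) passed IN libraries 2 and 3, so the groups overlapped. The mean was 40.3 ± 43.4 CPM in IN and 9.85 ± 6.58 CPM in NPC (SD, n = 3 each). Its log2 fold change of 2.03 (SE 1.26, 95% interval -0.60 to 4.66, edgeR adjusted p = 1.00) was the largest upward one of the 11 and rested partly on IN library 1, without which it was 0.63. In the coding-sequence table grm5.L had 283, 144 and 149 reads in IN libraries 1, 2 and 3, against 40, 14 and 135 in NPC libraries 1, 2 and 3. There too NPC library 3 (26.6 coding CPM) passed IN library 3 (24.6 coding CPM) after scaling, so the groups overlapped, and the log2 fold change was 1.55 (SE 1.59).

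The gene model of grm5.L is short, with a coding sequence of 1671 bases in 4 exons and no 3′ untranslated region, whereas grm5.S has 3519 coding bases in 9 exons. A separate model named grm5-like.L (2L, 171670942 to 171682795, minus strand, 696 coding bases) lies 178 kb away with 0 genes between. It had 2, 0 and 25 span reads in IN libraries 1, 2 and 3, against 55, 1 and 16 in NPC libraries 1, 2 and 3. Whether both models belong to 1 gene was not tested. The copy grm5.S (2S, 150023918 to 150190192, plus strand) had 1572, 81 and 706 span reads in IN libraries 1, 2 and 3, against 1446, 527 and 207 in NPC libraries 1, 2 and 3. Library 1 was highest in both groups, and the order of libraries 2 and 3 differed between them. The mean was 78.7 ± 73.7 CPM in IN and 81.7 ± 65.0 CPM in NPC (SD, n = 3 each), a log2 fold change of -0.05 (SE 0.89).

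Group II receptors gave the only copy whose groups did not overlap. The copy grm3.L (3L, 71566189 to 71685512, plus strand) encodes mGlu3, which in rodents is found in glia as well as neurons. It had 173, 143 and 244 span reads in IN libraries 1, 2 and 3, against 692, 360 and 565 in NPC libraries 1, 2 and 3. Every IN library was below every NPC library, at 18.9 ± 5.54 CPM in IN and 63.3 ± 15.8 CPM in NPC (SD, n = 3 each). The log2 fold change was -1.74 (SE 0.94, 95% interval -3.70 to 0.21), with the lowest p of the 11 copies, which ranked 1031 of 19158 genes (edgeR adjusted p = 1.00). Among all genes tested, 4.06% had IN libraries that were all below the NPC libraries and 8.76% did not overlap in either direction, so 1 of 11 copies is near that background. No copy had all IN libraries above all NPC libraries, which held for 4.7% of genes.

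The coding reads of grm3.L did not separate the groups: there were 42, 61 and 147 in IN libraries 1, 2 and 3, against 264, 1 and 353 in NPC libraries 1, 2 and 3. NPC library 2, with 360 span reads, thus had 1 in coding sequence (0.278%, Wilson 95% interval 0.0491 to 1.56%), and without regard to that library the NPC coding counts were above the IN ones. On coding reads the log2 fold change was -1.59 (SE 1.65). The partner copy grm3.S (3S, 68557920 to 68669279, minus strand) had 254, 59 and 136 span reads in IN libraries 1, 2 and 3, against 181, 48 and 199 in NPC libraries 1, 2 and 3. Its groups overlapped throughout, with library 2 lowest in both, and the log2 fold change was -0.16 (SE 1.41, 95% interval -3.09 to 2.77). With both copies of grm3 summed, the log2 fold change was -1.23 (SE 0.80, edgeR adjusted p = 1.00 over 13569 genes).

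The other group II receptor, mGlu2 (grm2), acts mainly as a presynaptic autoreceptor at glutamatergic terminals. The copy grm2.L (4L, 121835778 to 121871755, plus strand) had 557, 203 and 141 span reads in IN libraries 1, 2 and 3, against 399, 1117 and 8 in NPC libraries 1, 2 and 3. The NPC libraries held both the highest and the lowest value of the 6, so its log2 fold change of -1.02 (SE 1.15) turned to 0.48 without NPC library 2. Its last 5469 bases overlap rrp9.L on the other strand, 74 of them coding in grm2.L, and coding reads outnumbered span reads in IN library 2 (221 against 203) and NPC library 1 (435 against 399). The gene rrp9.L had 12, 0 and 189 coding reads in IN libraries 1, 2 and 3, against 42, 0 and 1 in NPC libraries 1, 2 and 3. Its span reads were 0, 0 and 24 in IN and 24, 0 and 0 in NPC, in the same order. Because no source used here gives the strand or counting setting, how reads of that stretch were assigned cannot be told. Genes without a symbol lie inside the spans of grm5.S, grm4.S, grm7.L, grm7.S and gabbr1.L, on the same or the other strand. They had 0 span reads in every library, while some had coding reads, at most 11 in a library. Whether span counts leave out reads of overlaps was not tested, so span values of grm2.L and these 5 copies may be too low. The copy grm2.S (4S, 100733202 to 100746739, plus strand) had 204, 0 and 0 span reads in IN libraries 1, 2 and 3, against 81, 0 and 0 in NPC libraries 1, 2 and 3. Only library 1 of each group held any, and it was not tested. In IN library 1, 203 of the 204 reads were coding, whereas in NPC library 1 none of the 81 was. A count of 0 allows up to 3 reads, which is 0.304 and 0.309 CPM in IN libraries 2 and 3, against 0.375 and 0.380 CPM in NPC libraries 2 and 3. These limits cover counting error only.

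Group III receptors, which sit at the presynaptic release site, had the most span reads of the glutamate receptors. The copy grm7.L (4L, 124571752 to 124855143, plus strand) had 4228, 1783 and 830 span reads in IN libraries 1, 2 and 3, against 1944, 1056 and 676 in NPC libraries 1, 2 and 3. Library 1 had the most reads and library 3 the fewest in both groups, and the groups overlapped, at 228 ± 171 CPM in IN and 141 ± 60.7 CPM in NPC (SD, n = 3 each). Its log2 fold change was 0.69 (SE 0.62) on span reads and -0.61 (SE 1.82) on coding reads, where the counts were 18, 165 and 56 in IN libraries 1, 2 and 3, against 187, 3 and 105 in NPC libraries 1, 2 and 3. The sign therefore depended on which reads were counted. The copy grm7.S (4S, 103115309 to 103431307, plus strand) had 1545, 470 and 224 span reads in IN libraries 1, 2 and 3, against 2082, 269 and 504 in NPC libraries 1, 2 and 3. Library 1 was again the highest of both groups, and the log2 fold change was -0.51 (SE 0.83).

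The remaining group III copy, grm4.S (2S, 53687136 to 53944899, minus strand), encodes mGlu4. It had 1574, 1100 and 143 span reads in IN libraries 1, 2 and 3, against 1354, 559 and 373 in NPC libraries 1, 2 and 3. IN library 3 was the lowest of the 6 and IN library 1 the highest. The mean was 93.9 ± 72.0 CPM in IN and 86.8 ± 50.3 CPM in NPC (SD, n = 3 each), a log2 fold change of 0.11 (SE 0.80).

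The GABA-B subunits gabbr2.S and gabbr1.L had the highest mean span CPM of the 12 copies. The copy gabbr1.L (8L, 50294593 to 50363473, minus strand) had 2842, 2577 and 2444 span reads in IN libraries 1, 2 and 3, against 2738, 1183 and 812 in NPC libraries 1, 2 and 3. The 3 IN libraries lay close together, at 265 ± 14.8 CPM, whereas the NPC libraries ranged from below to just above them, at 180 ± 97.7 CPM (SD, n = 3 each). The log2 fold change was 0.55 (SE 0.54, 95% interval -0.58 to 1.69). The copy gabbr1.S (8S, 77773397 to 77838293, minus strand) had 3269, 1087 and 710 span reads in IN libraries 1, 2 and 3, against 1402, 503 and 2015 in NPC libraries 1, 2 and 3. No order of the groups was seen, and the log2 fold change was 0.12 (SE 0.66). With the copies summed, gabbr1 had 6111, 3664 and 3154 span reads in IN libraries 1, 2 and 3, against 4140, 1686 and 2827 in NPC libraries 1, 2 and 3, a log2 fold change of 0.38 (SE 0.47). After scaling, the sums were 604, 372 and 325 CPM in IN libraries 1, 2 and 3, against 438, 211 and 358 CPM in NPC libraries 1, 2 and 3, so the groups overlapped.

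The partner subunit gabbr2.S (6S, 58552419 to 58889208, minus strand) had 3414, 3005 and 1829 span reads in IN libraries 1, 2 and 3, against 4501, 1630 and 993 in NPC libraries 1, 2 and 3. The NPC libraries again spanned the IN ones, at 277 ± 78.3 CPM in IN and 269 ± 184 CPM in NPC (SD, n = 3 each), and the log2 fold change was 0.04 (SE 0.56). On coding reads, gabbr2.S had 213, 681 and 961 in IN libraries 1, 2 and 3, against 319, 132 and 432 in NPC libraries 1, 2 and 3. Here library 1, the highest of both groups on span reads, was the lowest of IN, and the log2 fold change was 0.79 (SE 0.92).

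**Figure D2:**
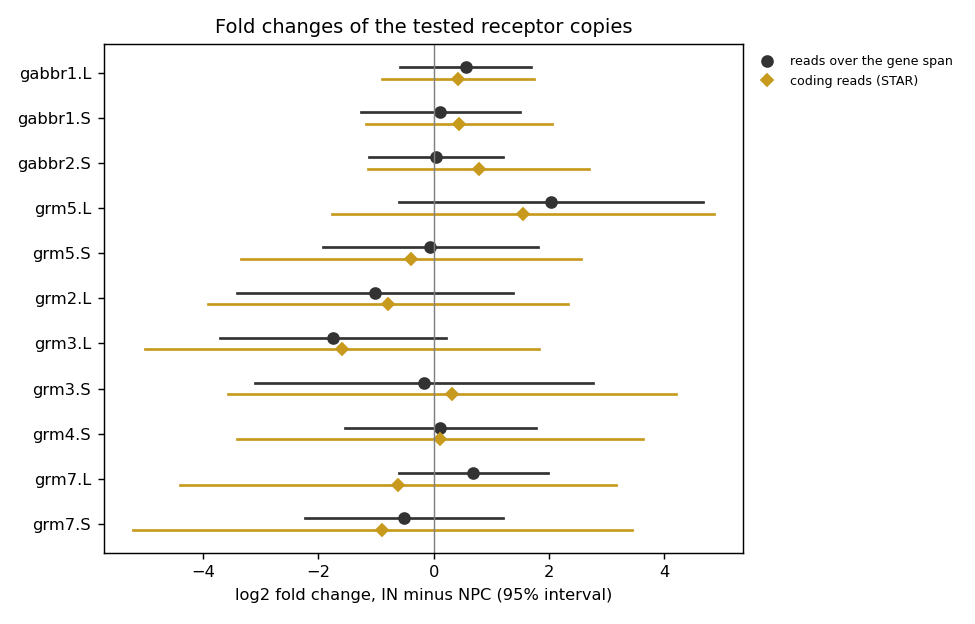
Log2 fold change (IN minus NPC) of the 11 tested receptor copies with 95% intervals, from span reads and from the coding-sequence counts. Every span interval includes 0, and grm3.S and grm7.L lie on opposite sides of 0 in the 2 counts, at -0.16 and 0.69 on span reads and at 0.32 and -0.61 on coding reads.

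Most span reads of the longest receptor genes lay outside coding sequence. Coding reads were 5.08% of the span reads of grm7.L and 5.65% of those of grm7.S, and 13.0% and 17.8% of those of grm4.S and gabbr2.S, over all 6 libraries. These 4 copies span 258 to 337 kb. For gabbr1.L and gabbr1.S, which span 68.9 and 64.9 kb, the shares were 57.0% and 49.0%. If reads had covered exons evenly, coding and untranslated, 94.1% of the span reads of grm7.L and 73.6% of those of gabbr2.S would lie beyond annotated exons, but 17.9% of those of gabbr1.L. The same estimate was -10.2% for grm3.L, -6.09% for grm2.L and -5.44% for grm3.S, which is not possible as a share. Reads therefore did not cover the exons of grm3.L and grm3.S, which include long untranslated regions, evenly. For grm2.L the overlap with rrp9.L may also enter. The estimate gives no share beyond exons for these copies, and even cover was not tested for the others.

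The coding share of a copy also differed widely between libraries of a group. For gabbr2.S it was 6.24% (Wilson 95% interval 5.48 to 7.10), 22.7% (21.2 to 24.2) and 52.5% (50.3 to 54.8) in IN libraries 1, 2 and 3, against 7.09% (6.37 to 7.87), 8.10% (6.87 to 9.52) and 43.5% (40.5 to 46.6) in NPC libraries 1, 2 and 3. Library 3 of both groups was thus highest and library 1 lowest, although in NPC the intervals of libraries 1 and 2 overlapped. The intervals cover counting error only. For grm5.S the share ranged from 4.90% in IN library 1 to 81.2% in NPC library 2, and for gabbr1.L from 46.2% to 63.0%. Over the 12 copies together the share was 22.3%, 29.4% and 54.5% in IN libraries 1, 2 and 3, against 22.7%, 22.8% and 44.3% in NPC libraries 1, 2 and 3. The median of 1520 genes spanning over 100 kb was 19.4%, 26.4% and 41.1% in IN libraries 1, 2 and 3, against 18.7%, 22.8% and 45.6% in NPC libraries 1, 2 and 3. In both sets library 3 of each group was the highest. In NPC, libraries 1 and 2 were nearly equal for the receptors, and single copies departed from the pooled order: NPC library 2 was the highest of its group for grm5.S, grm3.S and gabbr1.L.

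**Figure D3:**
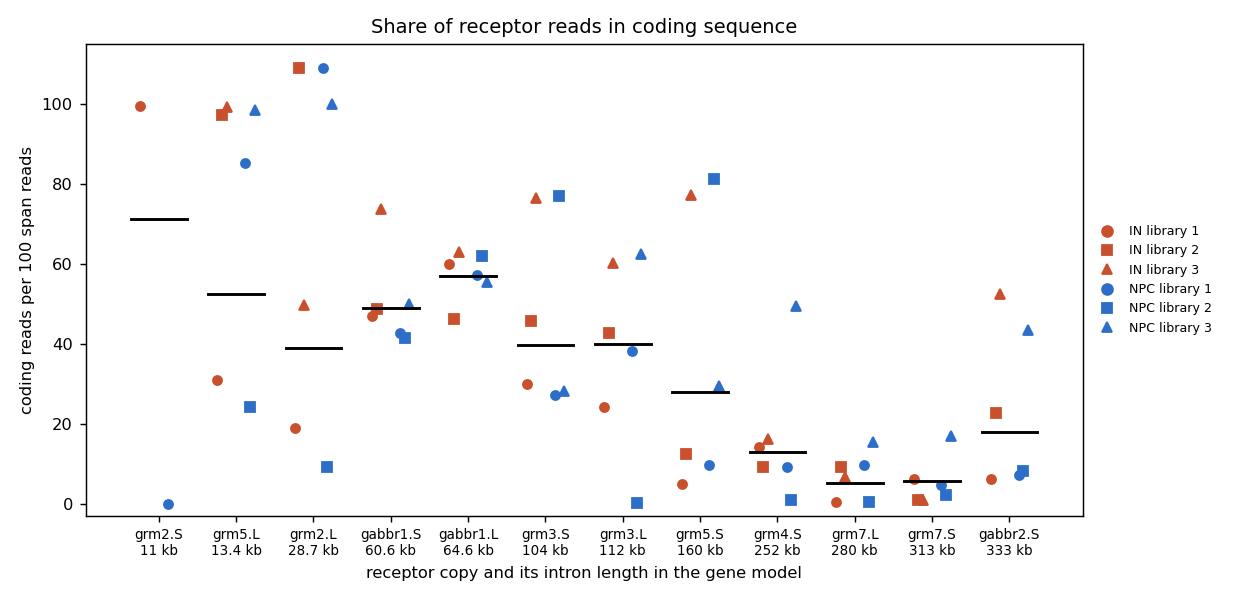
Coding reads per 100 span reads of each receptor copy in each library with reads, copies ordered by total intron length (kb), with a bar at the value pooled over libraries. The pooled value is 57.0 for gabbr1.L and between 5.08 and 17.8 for the 4 copies with the longest introns, and points of 1 copy are far apart. Values above 100 for grm2.L are libraries with more coding than span reads.

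Span reads of the receptors were concentrated in library 1 of each group. Their 12 copies had 20548, 10656 and 7557 span reads in IN libraries 1, 2 and 3, against 16867, 7310 and 6489 in NPC libraries 1, 2 and 3. IN library 1 was the highest of its group in 10 of the 11 tested copies (90.9%), against 34.5% of all genes tested and 56.0% of those spanning over 100 kb. NPC library 1 was the highest of its group in 7 of 11 (63.6%), against 34.5% of all genes and 52.0% of those over 100 kb. The part of intron reads in the fold changes was not tested beyond the coding counts given here. Summed by class, the GABA-B copies had 941, 677 and 513 span CPM in IN libraries 1, 2 and 3, against 915, 414 and 483 in NPC libraries 1, 2 and 3. The group III copies had 726, 340 and 123 in IN libraries 1, 2 and 3, against 570, 235 and 196 in NPC libraries 1, 2 and 3. The group I copies had 246, 23.2 and 88.1 in IN libraries 1, 2 and 3, against 158, 73.1 and 43.5 in NPC libraries 1, 2 and 3. In these classes library 1 was highest in both groups. The group II copies had 117, 41.1 and 53.7 in IN libraries 1, 2 and 3, against 143, 191 and 97.7 in NPC libraries 1, 2 and 3, where library 2 was the highest of NPC. IN and NPC overlapped in every class.

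Since span reads grow with intron length, levels of different copies were compared as coding CPM per kb of coding sequence. On that scale the GABA-B subunits led: gabbr1.L averaged 99.1 ± 29.9 in IN and 74.1 ± 55.1 in NPC, gabbr1.S 60.9 ± 50.7 in IN and 44.7 ± 26.1 in NPC, and gabbr2.S 42.7 ± 21.5 in IN and 24.8 ± 11.7 in NPC (SD, n = 3 each). Over all 6 libraries they stood at percentiles 92.6, 86.6 and 78.2 of 19044 genes. Genes with few coding reads summed over the libraries were left out of these 19044. Among the glutamate receptors, grm5.L was highest at 15.7 coding CPM per kb over all 6 libraries, with 23.4 ± 13.5 in IN and 7.97 ± 7.19 in NPC (SD, n = 3 each). It led through the IN libraries, as in NPC its mean was below those of grm3.L, grm2.L, grm5.S, grm7.L and grm4.S. The levels of grm2.L were 9.80 ± 5.83 in IN and 17.0 ± 21.7 in NPC, those of grm5.S 10.4 ± 13.3 in IN and 13.7 ± 12.4 in NPC, and those of grm3.L 5.77 ± 2.99 in IN and 17.3 ± 14.9 in NPC. These spreads were large against the means. Below them came grm4.S at 9.12 ± 8.88 in IN and 8.43 ± 6.99 in NPC, and grm7.L at 5.51 ± 5.38 in IN and 8.43 ± 8.65 in NPC. Next were grm3.S at 5.03 ± 2.66 in IN and 4.03 ± 0.795 in NPC, and grm7.S at 2.80 ± 4.51 in IN and 5.20 ± 4.31 in NPC (SD, n = 3 each). Last came grm2.S, at 18.5 in IN library 1 and 0 in the other 5 libraries.

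Most steps in this order were smaller than the spread between libraries. The steps from gabbr1.L to gabbr1.S and from gabbr2.S to grm5.L were each seen in 5 of 6 libraries, and those from gabbr1.S to gabbr2.S and from grm5.L to grm2.L in 4 of 6. From grm2.L down to grm7.S each neighbouring pair was in this order in 3 of 6 libraries, so neighbours among these 7 copies could not be ordered. Farther apart, grm2.L was above grm7.L and above grm7.S, and grm4.S above grm7.S, in 5 of 6 libraries each. The copy grm7.L, which had the most span reads of the glutamate receptor copies, thus ranked 9 of the 12 by coding level. It stood at percentile 30.2 of the 19044 genes ranked, which leave out genes with few coding reads.

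**Figure D4:**
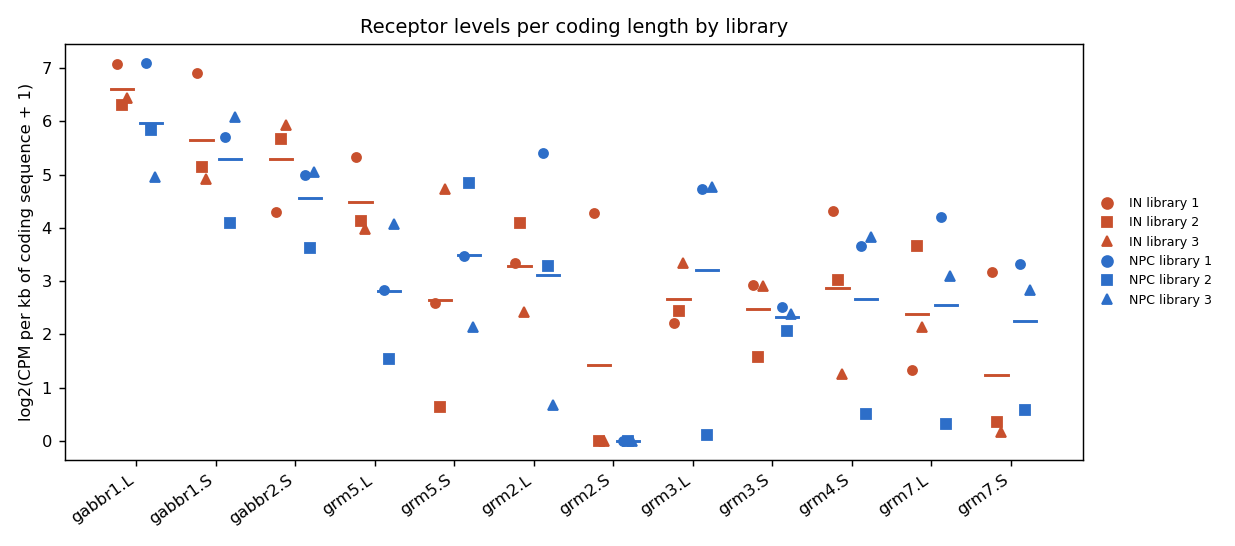
Level of each receptor copy in coding CPM per kb of coding sequence (log2 axis, 1 added) in IN (orange, left) and NPC (blue, right) libraries, with a bar at the mean of the log2 values. The 3 GABA-B copies on the left are highest on average, at 86.6, 52.8 and 33.8 over all libraries, and the glutamate receptor copies overlap each other. Single points cross: grm5.L, grm5.S, grm2.L and grm4.S are each above gabbr2.S in 1 of 6 libraries. In 1 of 6 libraries grm5.S is above gabbr1.S.

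The copies of a symbol on both subgenomes were compared within each library, as log2 of span CPM per kb of span (0.5 added), L minus S. All 5 pairs had a mean difference above 0, against 58.5% of 8398 pairs: 0.95 for grm2 (SE 0.45), 0.82 for grm5 (SE 0.40), 0.53 for grm7 (SE 0.28), 0.42 for gabbr1 (SE 0.41) and 0.36 for grm3 (SE 0.20). None of the 5 passed limma's test over all pairs (adjusted p 0.227 to 0.560, and 0 of 5 with an unadjusted p under 0.05), which called 4.87% of pairs for L and 2.75% for S. The size of the differences depended on the value added. With 0.1 added, grm2 was at 1.92 (limma unadjusted p 0.0342, adjusted p 0.147) and grm5 at 1.27. The others were then 1.02 for grm7, 0.78 for grm3 and 0.50 for gabbr1. With 1 added, the differences were 0.65 for grm2, 0.61 for grm5, 0.34 for grm7, 0.22 for grm3 and 0.35 for gabbr1. For grm2 and grm7 the L copy was the higher in 6 of 6 libraries, which held for 12% of all pairs. The grm5 copies differ in span, 15.3 kb for L and 166 kb for S, so the sign for grm5 rested on the division by span. Undivided, grm5.L averaged 25.1 span CPM and grm5.S 80.2 over all 6 libraries. Per annotated exon length the grm5 difference was -0.15 (SE 0.64). On coding reads per kb of coding sequence, the differences were 3.15 (SE 1.14, limma adjusted p 0.0968 over 8003 pairs) for grm2 and 0.48 to 0.88 for the other 4 pairs, with L higher in 3 to 5 of 6 libraries. That test called 5.87% of pairs for L and 3.16% for S, and none of the 5.

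The balance of the copies varied widely between libraries. The L copy of grm5 held 86.4%, 95.2% and 69.8% of span CPM per kb in IN libraries 1, 2 and 3, against 26.1%, 54.5% and 87.8% in NPC libraries 1, 2 and 3. On span reads NPC library 3 lay within the IN values and the other two NPC libraries below them. On coding CPM per kb the L share was 88.6%, 96.8% and 36.5% in IN libraries 1, 2 and 3, against 37.6%, 6.44% and 82.3% in NPC libraries 1, 2 and 3, where IN library 3 was below NPC library 1. For gabbr1 the L copy held 45.0%, 69.1% and 76.4% in IN libraries 1, 2 and 3, against 64.8%, 68.9% and 27.5% in NPC libraries 1, 2 and 3, with full overlap. For a change of the L minus S difference between IN and NPC, limma called 0 of 8398 pairs (0%), and 4% had an unadjusted p under 0.05, none of them a receptor pair. No source used here says how reads matching both copies were treated, which leaves each single copy's value uncertain.

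**Figure D5:**
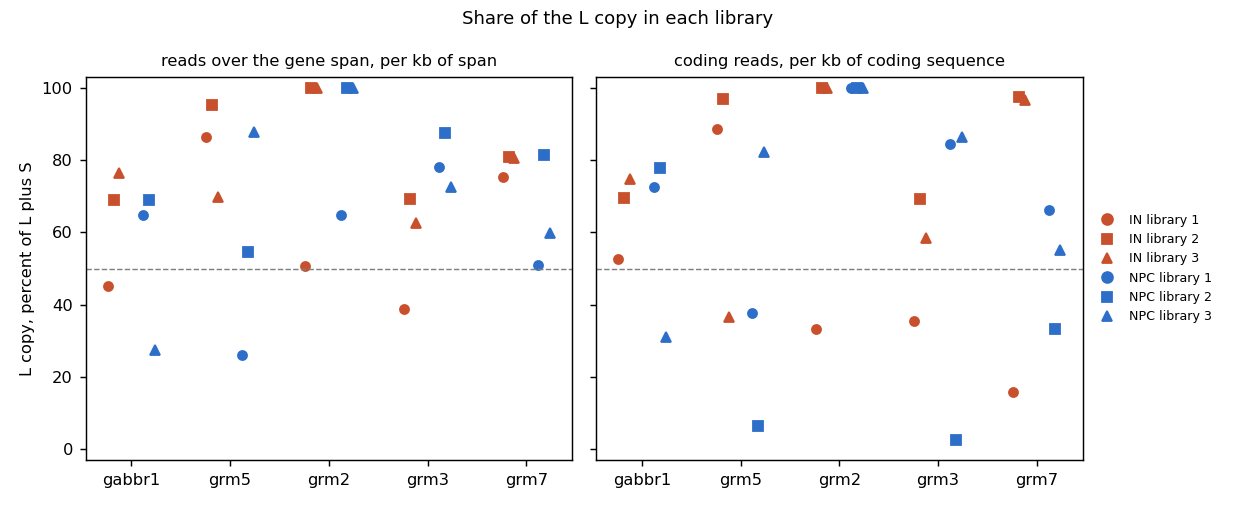
Share (percent) of the L copy in the sum of both copies, for the 5 receptor symbols with both. The left panel uses span CPM per kb of span, and the right panel coding CPM per kb of coding sequence. IN libraries are orange (left of each pair) and NPC libraries blue (right), and the line at 50 marks equal levels per kb. For grm5 the spans are 15.3 kb (L) and 166 kb (S). Points of grm5, grm3 and gabbr1 lie on both sides of 50 in both panels. On span reads those of grm7 run from 51.0 to 81.4, and grm2 is at 100 in the 4 libraries without grm2.S reads. On coding reads those of grm7 run from 15.9 to 97.6, and grm2 is at 33.1 in IN library 1 and at 100 in the others.

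Genes of the same pathways were counted from lists of partners, and 0 copies passed the test in either direction in the lists given here, by edgeR or by DESeq2. Of their 100 tested copies, 3 (homer3.S, gnao1.L and slc17a7.S) had an unadjusted p under 0.05, which is 3% against 3.43% of all genes. In 9 of the 100 the groups did not overlap, 2 with IN higher and 7 with IN lower, which is 9% against 8.76% of all genes. Among 28 tested copies of Gq signalling partners of group I receptors, 15 were above 0 and 13 below. The scaffold homer3.S, which binds mGlu5 in mammals, had 44, 29 and 42 span reads in IN libraries 1, 2 and 3, against 54, 472 and 265 in NPC libraries 1, 2 and 3. Every IN value was below every NPC value (log2 fold change -3.08, SE 1.46, edgeR adjusted p = 1.00). Its coding reads were 0, 8 and 25 in IN libraries 1, 2 and 3, against 1, 0 and 251 in NPC libraries 1, 2 and 3. On coding reads the groups thus overlapped and NPC library 3 held nearly all. Other Homer copies went both ways on span reads. Log2 fold changes were 2.15 for homer2.L (SE 1.27) and 0.53 for homer3.L (SE 1.24). They were -0.13 for homer2.S (SE 1.23), -0.96 for homer1.L (SE 1.65) and -1.17 for homer1.S (SE 0.84), the last with all IN libraries lower. Among 30 tested copies of Gi/o proteins, adenylyl cyclases and RGS proteins, 11 were above 0 and 19 below, and the groups did not overlap in 2 with IN higher and 2 with IN lower. The Go subunit gnao1.L had 1445, 1686 and 1189 span reads in IN libraries 1, 2 and 3, against 2439, 3731 and 2059 in NPC libraries 1, 2 and 3, with all IN libraries lower (log2 fold change -1.18, SE 0.53, edgeR adjusted p = 1.00). Its partner gnao1.S overlapped between the groups, at 184 ± 74.4 CPM in IN and 243 ± 112 CPM in NPC (SD, n = 3 each).

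Of 15 copies of GABA-B auxiliary subunits and effector channels, 11 were tested, 4 above 0 and 7 below. The 2 of lowest p overlapped between groups. The auxiliary subunit kctd8.S had 34, 4 and 13 span reads in IN libraries 1, 2 and 3, against 1, 0 and 278 in NPC libraries 1, 2 and 3, so its log2 fold change of -2.78 (SE 2.27) rested on NPC library 3, and the other two NPC libraries were below all IN libraries. The other was ajap1.S (log2 fold change 1.04, SE 1.03), whose protein binds GABA-B receptors in mammals. Among 12 copies of binding partners of metabotropic glutamate receptors, 4 were above 0 and 8 below, with a median of -0.52. In 2 of the 12 all IN libraries were below all NPC libraries, which held for 4.06% of all genes tested. The scaffold grasp.L, of lowest p, overlapped between the groups, at 9.26 ± 7.69 CPM in IN and 53.9 ± 72.7 CPM in NPC (SD, n = 3 each). The scaffold grip2.S, next by p, had IN libraries below NPC libraries on span reads, with an edgeR adjusted p of 1.00. Its means were 20.7 ± 4.74 CPM in IN and 65.3 ± 40.0 CPM in NPC (SD, n = 3 each). On coding reads its groups overlapped, as IN library 1 (5.75 coding CPM) was above NPC library 3 (4.92 coding CPM). The partner copy grip2.L had a log2 fold change of 1.44 (SE 1.11).

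Genes that supply or clear the transmitters had 10 copies above 0 and 9 below. The vesicular glutamate transporter slc17a7.S had 267, 462 and 492 span reads in IN libraries 1, 2 and 3, against 256, 1103 and 2498 in NPC libraries 1, 2 and 3. After scaling, NPC library 1 (27.1 CPM) lay among the IN libraries (26.4 to 50.7 CPM) and the other two NPC libraries above them, so the groups overlapped (log2 fold change -1.96, SE 0.79, edgeR adjusted p = 1.00). Its coding CPM were 18.2, 50.7 and 8.73 in IN libraries 1, 2 and 3, against 13.0, 14.0 and 292 in NPC libraries 1, 2 and 3. On coding reads only NPC library 3 was thus above the IN libraries. The GABA-synthesising enzyme copy gad1.1.S was at 172 ± 58.9 CPM in IN and 344 ± 190 CPM in NPC (SD, n = 3 each). The groups overlapped, since NPC library 1 (126 CPM) was below IN library 2 (152 CPM) and IN library 3 (238 CPM). It did not pass the test (edgeR adjusted p = 1.00).

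Across the 6 libraries, the genes most like each class's most abundant tested copy in log2 span CPM were described by Pearson's r over 15043 genes. They were pigg.S, sept6.S and prrt3-like.L for grm5.S (r 0.992 each), and rapgef4.S, hsd17b4.L and snx1.S for grm2.L (r 0.997, 0.994 and 0.989). For grm7.L they were abcd4.L, march4.S and ctif.L (r 0.991, 0.990 and 0.989), and for gabbr2.S epha7.L, dusp6.S and dlx6.L (r 0.996, 0.993 and 0.992). Of the 15043 genes, 124 exceeded 0.9 for grm5.S, 248 for grm2.L, 126 for grm7.L and 180 for gabbr2.S. How many unrelated genes would exceed it by chance over 6 libraries was not computed, so no gene is shown to vary with a receptor. Between the GABA-B partners, gabbr2.S and gabbr1.L had r = 0.838, and gabbr2.S and gabbr1.S had r = 0.111, over the same 6 libraries. All of these values share the libraries' differences in coding share.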

How the data were processed

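RNA was sequenced as single-end reads of 100 bases, per the labels' protocols. The authors deposited raw counts in 3 tables, which per their sheet names hold STAR alignments over mRNA and over coding sequence and TopHat2 alignments over coding sequence. The submitters' processing notes also name FastQC, Trimmomatic, HTSeq and DESeq2, without versions. Count columns carry a letter and a number, and D was read as dark (NPC) and L as light (IN). Gene models came from the deposited annotation, per the file headers for build 9.1, version 1.8.3.1. No source used here gives the strand, counting mode or multi-mapping settings.

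The STAR mRNA counts were filtered with filterByExpr and TMM-scaled, and edgeR 4.0.16 in R 4.3.3 was the test (quasi-likelihood, robust, 2-sided, Benjamini-Hochberg over all genes, threshold 0.05). Standard errors of edgeR fold changes were the absolute log2 fold change divided by the square root of the test's F statistic. CPM are counts scaled to a common total, computed from the deposited counts, and SD is over 3 libraries. L and S copies were compared with limma 3.58.1 over pairs with a mean of at least 1 CPM in 1 copy. Likeness used genes of at least 5 CPM and a prior count of 2. The code was tested on simulated counts.

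The receptors, partner lists and tests were chosen with earlier results of these data known. Named genes were all copies of the receptors, from each partner list up to 2 of lowest p, and the 3 most alike genes per class. The genes gnao1.S, grip2.L, grm5-like.L, en1 and rrp9.L were added after their values were seen. So were the Homer copies besides homer3.S and the genes inside receptor spans. Alternatives were other scalings, filters, DESeq2 1.42.0, limma-voom, both coding tables, a replicate block, summed copies, left-out libraries, thresholds of 0.01 and 0.1, and other pseudocounts. Counts per exon length and leaving out both number-1 libraries were added after the data were seen. Some partner genes are not reported here.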

Additional observations from a re-analysis of the deposited data

How the results depend on the processing

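The count of genes called over all genes was 0 and stayed 0 under 15 of 19 alternatives, while it was 16 without a filter on low counts, 88 by DESeq2, and 0 to 2 with each library left out (1 without NPC library 1, 2 without NPC library 3). Among the 15, the thresholds of 0.01 and 0.1 used the main edgeR fit, whose smallest adjusted p was 0.638, so they could not change the count. No receptor copy passed the threshold under any alternative. The copies grm5.L (0.30 to 2.72), grm3.L (-1.99 to -1.56) and gabbr1.L (0.28 to 1.06) kept the sign of their log2 fold change under all 16 alternatives, and the lowest adjusted p were 0.720, 0.524 and 0.786. Reversed signs were 0.40 for grm2.L and -0.31 for grm4.S by limma-voom, 0.32 for grm3.S and -0.61 for grm7.L on STAR coding counts, 0.28 and -0.56 for these 2 on TopHat2 coding counts, and -0.80 for gabbr1.S without both number-1 libraries. Same-numbered libraries deviated together with r of 0.115, 0.0467 and 0.0813, against -0.0744 to -0.00773 for libraries of unlike number. All 6 of 6 libraries correlated best with their own number. The main test did not take the numbers as pairs, so its p-values leave out any structure shared by number. Whether same-numbered libraries were handled together was not tested. With the replicate number as a block, 0 genes were called, and grm2.L (0.40) and grm4.S (-0.27) changed sign. With each library left out, the log2 fold change ranged from -1.01 to 0.76 for grm5.S, -1.80 to 0.48 for grm2.L, -0.74 to 0.26 for grm3.S, -0.46 to 0.67 for grm4.S, -0.084 to 1.09 for grm7.L, -1.58 to 0.60 for grm7.S, -0.76 to 0.68 for gabbr1.S and -0.29 to 0.73 for gabbr2.S. Among L and S pairs, dividing by annotated exon length called 1 of 5 (grm7, difference 1.25, limma adjusted p 0.0485) and turned grm5 to -0.15. The cause of these changes was not tested. Summed copies were fitted by symbol, so they have no value for single copies of a pair. The copy grm2.S was tested only without a filter (log2 fold change 1.25, SE 2.40, adjusted p 0.944). By DESeq2, grm3.L had the lowest unadjusted p of the receptor copies (0.0201, DESeq2 adjusted p 0.524). At standard errors of 0.54 to 1.41, the lack of calls does not show that levels were equal. Simulated counts with known changes served to test the code, but the size of change that could be detected is not reported here.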
